A study of Homo sapiens with 6 samples.

Results

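The genes described here carry peptides to the cell surface on major histocompatibility complex (MHC) class I molecules. They were 9 rows of the deposited count tables, out of 57209: the class I heavy chains HLA-B, HLA-C, HLA-E and HLA-F, the light chain B2M, the peptide transporter subunit TAP1, the immunoproteasome subunit PSMB10, and the noncoding rows HLA-F-AS1 and ENSG00000271581, which lie opposite HLA-F and HLA-B. The rows were chosen by name. For the protein-coding members, any row whose exons overlapped theirs on the other strand was read as well, which added PSMB8-AS1 opposite TAP1, and ENSG00000225864 and RPL23AP1 opposite HLA-F.

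The 6 RNA-seq libraries were made from cells of the triple-negative breast cancer line MB157 that carry Cas9, as the sample titles have it. In 3 libraries the cells had received a SOX9 KO sgRNA, which targets the HMG-box transcription factor SOX9, and in the other 3 a control sgRNA. Both groups were cultured under puromycin, taken 4 days after receiving the sgRNA and sorted for the top 50% of sgRNA-expressing cells. The study's design text says that the cells stably expressed SOX9, which all 6 libraries would then share, and no label describes a clone. The labels call the replicates technical, so each p-value here speaks of these libraries and not of separate experiments. In bulk RNA, fewer expressing cells and less RNA per cell cannot be told apart.

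Class I molecules display fragments of proteins made inside the cell to CD8 T cells and natural killer cells. The proteasome cuts the proteins, TAP pumps the peptides into the endoplasmic reticulum, and chaperones load them onto a heavy chain paired with beta-2-microglobulin. Interferons raise the whole set through shared promoter elements, and tumours often lose it. HLA-B and HLA-C are classical, highly variable heavy chains, while HLA-E and HLA-F are nonclassical ones.

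The promoter sequences of the members come first. RefSeq windows on GRCh38.p14 were found for 7 of the 9 members. Each runs from 250 bases before a start to 50 after it, on the gene's own strand. The windows below are those of HLA-B (chr6:31357130-31357429, minus strand), HLA-C (chr6:31272043-31272342, minus strand), HLA-F (chr6:29723184-29723483, plus strand), TAP1 (chr6:32853655-32853954, minus strand) and PSMB10 (chr16:67936801-67937100, minus strand). They are shown because the annotated HLA-B start lies inside the deepest row of the set, because HLA-C and TAP1 lay higher in every SOX9 sgRNA library, and because HLA-F and PSMB10 were called higher. Capitals mark the motif letters found on either strand.

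HLA-B: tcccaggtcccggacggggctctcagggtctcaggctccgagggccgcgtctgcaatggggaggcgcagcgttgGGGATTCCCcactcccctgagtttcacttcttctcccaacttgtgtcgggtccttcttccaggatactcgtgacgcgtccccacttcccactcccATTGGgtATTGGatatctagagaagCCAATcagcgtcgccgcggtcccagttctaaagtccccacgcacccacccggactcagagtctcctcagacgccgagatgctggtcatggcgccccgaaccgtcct

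HLA-C: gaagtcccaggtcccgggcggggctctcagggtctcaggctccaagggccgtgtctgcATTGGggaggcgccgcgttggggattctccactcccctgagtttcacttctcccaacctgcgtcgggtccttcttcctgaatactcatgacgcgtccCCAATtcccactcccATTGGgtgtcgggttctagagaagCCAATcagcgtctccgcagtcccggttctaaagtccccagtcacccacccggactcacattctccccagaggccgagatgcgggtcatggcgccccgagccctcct

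HLA-F: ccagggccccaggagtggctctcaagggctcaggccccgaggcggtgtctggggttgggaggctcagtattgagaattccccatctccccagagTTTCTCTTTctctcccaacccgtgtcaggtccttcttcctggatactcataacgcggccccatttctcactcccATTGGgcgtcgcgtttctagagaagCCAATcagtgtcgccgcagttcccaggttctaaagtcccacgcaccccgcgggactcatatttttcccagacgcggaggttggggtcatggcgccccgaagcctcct

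TAP1: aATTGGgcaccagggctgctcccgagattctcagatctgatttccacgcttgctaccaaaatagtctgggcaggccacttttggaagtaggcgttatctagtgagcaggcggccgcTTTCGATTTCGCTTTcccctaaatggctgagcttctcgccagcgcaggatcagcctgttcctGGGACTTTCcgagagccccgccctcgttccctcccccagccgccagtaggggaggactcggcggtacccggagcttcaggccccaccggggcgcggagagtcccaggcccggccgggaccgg

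PSMB10: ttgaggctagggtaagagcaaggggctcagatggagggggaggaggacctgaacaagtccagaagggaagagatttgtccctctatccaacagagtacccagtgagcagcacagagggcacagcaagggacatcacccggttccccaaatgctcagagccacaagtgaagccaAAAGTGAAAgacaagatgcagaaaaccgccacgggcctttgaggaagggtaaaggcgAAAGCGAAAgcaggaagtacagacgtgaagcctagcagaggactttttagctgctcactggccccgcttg

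The motifs searched, on both strands, were TTTCNNTTT (core of the interferon-stimulated response element), GGGATTCCC and GGGACTTTC (NF-kappaB cores), TTCNNNGAA (gamma-activated site), TGACGTCA (cyclic AMP response element), CCAAT (Y box core), ACAATGG and ACAAAGG (SOX), and TATAAA. Copies of CCAAT, read as ATTGG on the other strand, stood 81 bases before the HLA-B start, 80 before that of HLA-C and 82 before that of HLA-F. Further ones lay at 56, 56 and 57 bases before these starts. CCAAT was in 34.6% of all 35116 promoter windows. HLA-B also held GGGATTCCC, which 0.384% of windows hold, and TAP1 held GGGACTTTC, which 0.387% hold. The response element core was found in HLA-F, at 2 overlapping places each in TAP1 and B2M and at 2 places in PSMB10, against 10.5% of all windows. Only exact words were searched, so variants of an element were missed. The HLA-B and HLA-C windows both hold TTTCACTTC, which differs from the searched core in its last letter only. The lack of a match there does not show that these genes lack the element. B2M, which had no counts, also held GGGACTTTC, and a second TAP1 window held the gamma-activated site, which 7.66% of windows hold. Neither SOX word was found in any member's window. These matches are letters in a window and not measured sites.

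Which strand a row's counts come from was not settled. The library kit is stranded and the file headers give strand setting 1, but whether that setting fits the kit was not tested, and it may be the wrong one. In 1356 pairs of a protein-coding gene and a single row of another biotype opposite it, with at least 100 counts a pair, 961 pairs (70.9%) had more counts on the row that is not protein-coding. Those rows held 80.35% to 80.99% of the pairs' counts in the SOX9 sgRNA libraries and 81.75% to 81.91% in the control libraries. If the setting were reversed, counts on a gene's own row would be RNA of the other strand, and the gene's own RNA would lie on the row opposite it or, where none exists, go uncounted. All values below are values of rows as labelled in the tables. These pairs were chosen after the counts had been seen.

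ENSG00000271581 opposite HLA-B, HLA-F and PSMB10 were higher with the SOX9 sgRNA, and no member was lower. The row opposite HLA-B rose 1.79-fold. HLA-F and PSMB10 rose 3.25-fold and 1.48-fold, but each call was lost when certain libraries were left out. HLA-B, HLA-C, TAP1 and HLA-F-AS1 lay higher in every SOX9 sgRNA library than in any control library without passing the test, HLA-E overlapped between groups, and B2M had no counts. Of all 7959 rows that passed the filter on low counts, 9.01% were called at an edgeR adjusted p of 0.05, 2.99% higher and 6.02% lower. Groups that did not overlap, with the SOX9 sgRNA above, were seen in 6 of the 8 members that passed, against 11.7% of all rows tested. The 8 had a median log2 fold change of 0.68, against 0.01 for all rows tested. HLA-F and HLA-F-AS1 are in that number mainly through their SOX9 sgRNA libraries, so these figures describe the set and support nothing. Other settings called 4 members with library totals as the only scaling (7.85% of all rows higher), 2 with no filter on low counts (0.542%), 2 with a stricter filter (5.02%), 1 with DESeq2 (2.01%) and 1 with the replicate number as a block (2.2%).

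**Figure D1:**
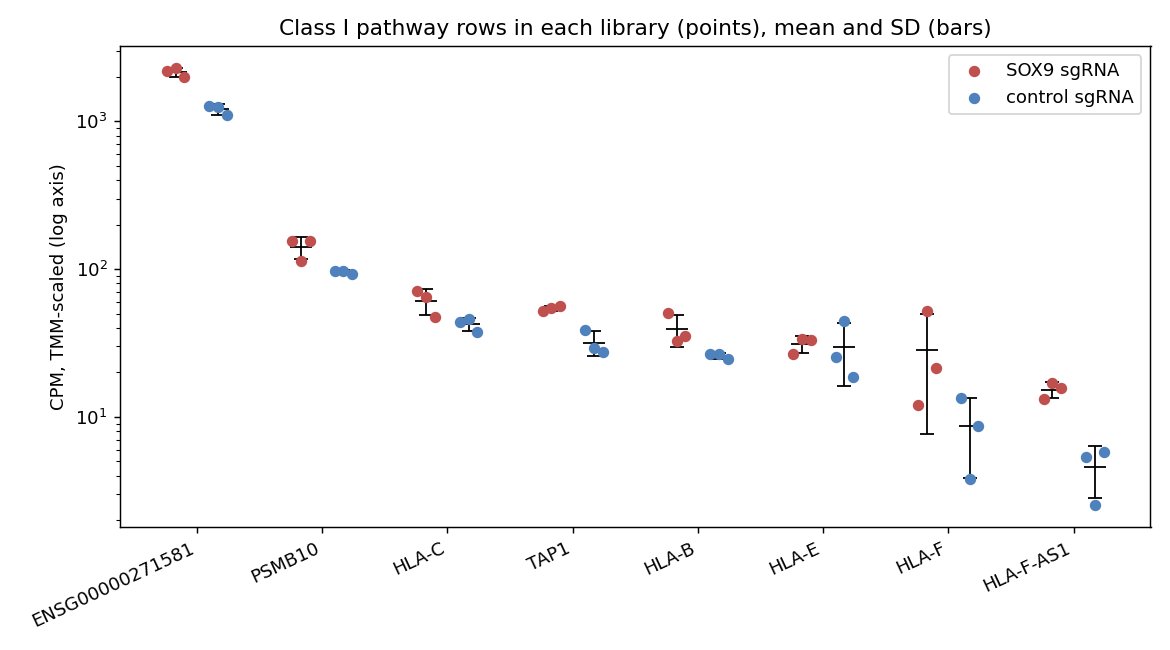
TMM-scaled CPM (log axis) of the 8 members with counts, for 3 SOX9 sgRNA and 3 control sgRNA libraries (points), with the mean and SD (bars). ENSG00000271581 lies at 1998 to 2287 CPM in the SOX9 sgRNA libraries, against 1098 to 1276 CPM in the controls, and HLA-E and HLA-F overlap between groups.

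Total counts ran from 776125 to 1018854 in the SOX9 sgRNA libraries and from 777960 to 881655 in the control libraries, and 18326 to 21082 rows had a count in a library. CPM below means counts relative to the library's total over rows tested, scaled by its TMM factor. The targeted gene SOX9 had 37, 39 and 60 counts in SOX9 sgRNA libraries 1 to 3, against 38, 52 and 44 in controls 1 to 3. The groups overlapped, at a log2 fold change of -0.22 (95% interval -0.74 to 0.29, edgeR adjusted p = 0.70), so that transcript counts did not check the labels. A Cas9 cut need not lower a gene's RNA, and under a reversed strand setting the SOX9 row would not hold the RNA of SOX9. Neither was tested. Of 9 epithelial markers 7 were tested and 2, KRT7 and KRT19, were lower, while all 9 together summed to 988 to 1196 CPM with the SOX9 sgRNA and 1147 to 1219 CPM in controls. KRT7 averaged 30.9 ± 1.36 CPM with the SOX9 sgRNA and 60.7 ± 10.2 CPM in controls (-0.97 on the log2 scale, edgeR adjusted p = 0.018). KRT19 averaged 190 ± 32.8 CPM with the SOX9 sgRNA and 318 ± 6.22 CPM in controls (-0.74, edgeR adjusted p = 1.83e-05). KRT8, which was not called, averaged 601 ± 98.7 CPM with the SOX9 sgRNA and 554 ± 17.6 CPM in controls (SD, n = 3 each). Of these markers 0 were called higher, and of 4 opposite rows tested 0 were higher and 2 lower. KRT5 was not called either, at 0.41 on the log2 scale (edgeR adjusted p = 0.17). KRT14 and KRT17, which missed the filter, had 7 and 21 counts over the SOX9 sgRNA libraries, against 39 and 3 over the controls. The hormone receptor genes ESR1 and PGR had 9 and 15 counts over the SOX9 sgRNA libraries, against 3 and 11 over the controls, while ERBB2, which encodes HER2, had 537 against 484. Leukocyte markers summed to 12.7 to 36.4 CPM with the SOX9 sgRNA and 12.7 to 18.7 CPM in controls, with 4 of 9, among them CD3D and CD3E, at 0 in all libraries. Fibroblast markers summed to 3.89 to 16.9 CPM with the SOX9 sgRNA and 2.67 to 7.19 CPM in controls, with COL3A1 and LUM at 0, and both matched endothelial markers, VWF and CDH5, were at 0. The part of such cells in the results was not tested.

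Among the classical heavy chains, the row labelled HLA-B held few counts, which may not be the level of HLA-B given the open strand setting. HLA-B (ENSG00000234745, chromosome 6, 31321649 to 31324965, minus strand, GRCh37) had 42, 25 and 36 counts in SOX9 sgRNA libraries 1 to 3, against 20, 21 and 17 in controls 1 to 3. Every SOX9 sgRNA library was above every control. After scaling these were 39.4 ± 9.79 CPM with the SOX9 sgRNA and 25.9 ± 1.29 CPM in controls (SD, n = 3 each). With a log2 fold change of 0.60 (95% interval -0.06 to 1.25, SE 0.33), HLA-B did not pass the test (edgeR adjusted p = 0.30).

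HLA-C (ENSG00000204525, chromosome 6, 31236526 to 31239907, minus strand) also lay higher in every SOX9 sgRNA library. It had 59, 50 and 49 counts with the SOX9 sgRNA, against 33, 36 and 26 in controls, or 61.2 ± 12.1 CPM with the SOX9 sgRNA and 42.4 ± 4.41 CPM in controls (SD, n = 3 each). The lowest SOX9 sgRNA library, at 47.7 CPM, was just above the highest control, at 45.7 CPM. It did not pass either, at 0.52 on the log2 scale (95% interval -0.02 to 1.06, SE 0.27, edgeR adjusted p = 0.27). No exon lay opposite HLA-C. Class I genes resemble each other closely, and the file headers show no setting that would count reads with several alignments, so that counts of these genes may be lost or split and are uncertain.

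Of the nonclassical chains, HLA-E (ENSG00000204592, chromosome 6, 30457244 to 30461982, plus strand), a ligand of the inhibitory receptor NKG2A on natural killer cells, had 22, 26 and 34 counts with the SOX9 sgRNA, against 19, 35 and 13 in controls. Control libraries 2 and 3 were the highest and the lowest of all 6 by CPM, and the groups overlapped. Means were 31.1 ± 4.03 CPM with the SOX9 sgRNA and 29.5 ± 13.4 CPM in controls (SD, n = 3 each), and edgeR gave 0.07 on the log2 scale (95% interval -0.62 to 0.75, SE 0.34, adjusted p = 0.94). It was -0.18 without control library 3, -0.05 without control library 1 and 0.48 without control library 2.

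HLA-F (ENSG00000204642, chromosome 6, 29690552 to 29706305, plus strand) encodes a chain that stays largely inside the cell and can reach the surface without peptide. It had 10, 40 and 22 counts with the SOX9 sgRNA, against 10, 3 and 6 in controls. SOX9 sgRNA library 1 lay below control library 1, which had 13.4 CPM, and SOX9 sgRNA library 2 stood far above the rest at 52.0 CPM. Scaled means were 28.5 ± 20.9 CPM with the SOX9 sgRNA and 8.60 ± 4.77 CPM in controls (SD, n = 3 each). HLA-F passed the test at a log2 fold change of 1.70 (95% interval 0.71 to 2.69, SE 0.49, edgeR adjusted p = 0.017). Without SOX9 sgRNA library 2 it was 0.96 with an edgeR adjusted p of 0.52, and without control library 2 it was 1.32 with an adjusted p of 0.11. DESeq2 gave 1.71 with an adjusted p of 0.053. Over 12 alternatives the adjusted p ran from 0.000664, on the sum of HLA-F and its opposite rows, to 0.516, and the lowest on the HLA-F row itself was 0.00255.

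B2M (ENSG00000166710, chromosome 15, 45003675 to 45011075, plus strand), the light chain that nearly all class I heavy chains need, had 0 counts in all 6 libraries. No row on the other strand shared an exon with it, so under a reversed strand setting the RNA of B2M would go uncounted. That was not tested. A count of 0 in 5125924 counts allows up to 0.585 CPM by counting error alone, the share that 3 counts would give. Nucleated cells usually make much of this transcript. The row gives no value for either group and was not among the rows tested.

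Peptide supply was read from PSMB10 and TAP1. PSMB10 (ENSG00000205220, chromosome 16, 67968405 to 67970990, minus strand) encodes an interferon-inducible subunit that replaces a constitutive one in the immunoproteasome. It had 129, 87 and 160 counts with the SOX9 sgRNA, against 73, 77 and 64 in controls. All 3 SOX9 sgRNA libraries were above the controls, and library 2 was the nearest to them at 113 CPM, against 97.8 CPM in the highest control. The means were 141 ± 24.5 CPM with the SOX9 sgRNA and 95.8 ± 3.24 CPM in controls (SD, n = 3 each).

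PSMB10 passed the test at 0.57 on the log2 scale (95% interval 0.20 to 0.93, SE 0.18, edgeR adjusted p = 0.035). The call held without SOX9 sgRNA library 2, at 0.69, and was lost when SOX9 sgRNA library 1 or 3, or any of the 3 control libraries, was left out, with values from 0.48 to 0.57. It was also lost with no filter on low counts (edgeR adjusted p = 0.13) and with DESeq2 (adjusted p = 0.059), in a range of 0.00276 to 0.177 over 12 alternatives. ENSG00000261884, a protein-coding row on the same strand, shared 644 bp of exon with PSMB10, which is 34.8% of the PSMB10 exon length. A fragment there could count for both. That row had 267, 233 and 332 counts with the SOX9 sgRNA, against 125, 146 and 144 in controls, with groups far apart. It rose by 0.76 on the log2 scale (edgeR adjusted p = 6.97e-06, SE 0.13), and leaving out any 1 of the 6 libraries did not end that call. How many fragments the 2 rows share was not tested.

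TAP1 (ENSG00000168394, chromosome 6, 32812986 to 32821755, minus strand), one chain of the peptide pump, had 43, 42 and 58 counts with the SOX9 sgRNA, against 29, 23 and 19 in controls. The SOX9 sgRNA libraries were close together at 54.3 ± 2.35 CPM, all above the controls at 31.7 ± 6.11 CPM (SD, n = 3 each). TAP1 differed by 0.77 on the log2 scale (95% interval 0.19 to 1.36, SE 0.29). Its unadjusted edgeR p of 0.011 became an edgeR adjusted p of 0.093 over all rows tested. Scaled by library totals alone, TAP1 was called at 0.95 with an edgeR adjusted p of 0.022, in a range of 0.0224 to 0.306 over 13 alternatives. Under that scaling the median over all rows tested was 0.19, against 0.01 with TMM factors.

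**Figure D2:**
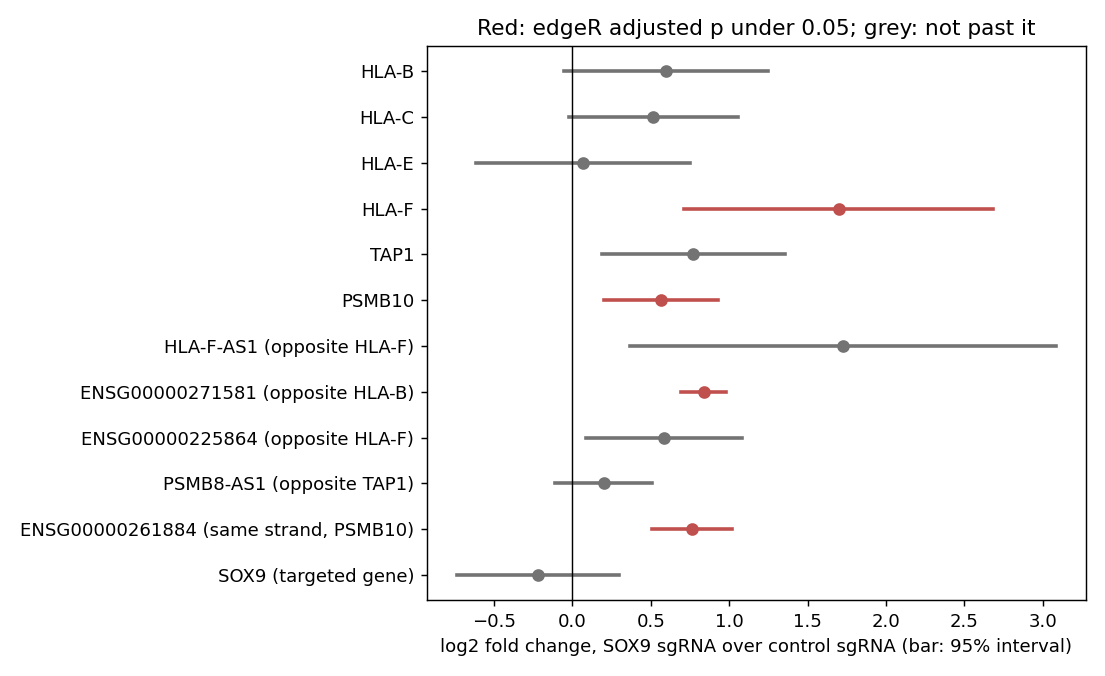
Log2 fold change, SOX9 sgRNA over control sgRNA, with its 95% interval, for the members with counts, tested rows that overlap them and SOX9. RPL23AP1, which missed the filter on low counts, is not shown. ENSG00000271581, at 0.84, has a narrow interval of 0.69 to 0.98, while HLA-F-AS1, at 1.73, spans 0.37 to 3.08.

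Opposite HLA-B, the counts were far deeper. ENSG00000271581 (chromosome 6, 31324424 to 31325414, plus strand), an unprocessed pseudogene in GENCODE release 29, covers 542 bp of HLA-B exon at the start of that gene and runs 449 bp past its first base. It had 1820, 1760 and 2052 counts with the SOX9 sgRNA, against 956, 982 and 764 in controls. The groups were well apart, at 2159 ± 148 CPM with the SOX9 sgRNA and 1207 ± 95.3 CPM in controls (SD, n = 3 each). This row rose by 0.84 on the log2 scale (95% interval 0.69 to 0.98, SE 0.073, edgeR adjusted p = 3.93e-15). The call held whichever of the 6 libraries was left out.

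Levels per length can be set side by side. ENSG00000271581 stood at 2179 ± 149 CPM per kb of exon with the SOX9 sgRNA and 1218 ± 96.2 CPM per kb in controls (SD, n = 3 each), and ranked 66 by mean CPM among rows tested. HLA-B on the other strand was at 13.1 ± 3.25 CPM per kb with the SOX9 sgRNA and 8.61 ± 0.43 CPM per kb in controls. Of the rows labelled with protein-coding members PSMB10 had the highest value, an order that holds only if the strand setting is right, at 76.3 ± 13.2 CPM per kb with the SOX9 sgRNA and 51.7 ± 1.75 CPM per kb in controls. The HLA-C row came next, at 24.4 ± 4.83 CPM per kb with the SOX9 sgRNA and 16.9 ± 1.76 CPM per kb in controls, above HLA-B by more than their spread in both groups. TAP1 stood at 11.4 ± 0.496 CPM per kb with the SOX9 sgRNA and 6.69 ± 1.29 CPM per kb in controls. HLA-E stood at 10.5 ± 1.35 CPM per kb with the SOX9 sgRNA and 9.92 ± 4.49 CPM per kb in controls. HLA-B, TAP1 and HLA-E lay within their spread of each other with the SOX9 sgRNA, and their order differed in controls. HLA-F, at 6.08 ± 4.46 CPM per kb with the SOX9 sgRNA and 1.83 ± 1.02 CPM per kb in controls, and HLA-F-AS1, at 3.65 ± 0.442 CPM per kb with the SOX9 sgRNA and 1.09 ± 0.418 CPM per kb in controls, were the lowest of those detected. These 2 did not differ beyond their spread.

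Over the group, the row opposite HLA-B held 54.7 counts for each HLA-B count with the SOX9 sgRNA and 46.6 in controls. Its share of the pair was 98.2 ± 0.432% with the SOX9 sgRNA and 97.9 ± 0.0647% in controls (SD, n = 3 each), a difference of 0.313 percentage points (exact permutation test over libraries, two-sided p = 0.40, 0.40 after adjustment over 3 pairs). With 3 libraries against 3 that test cannot go below 0.10. The fit on the sum of both rows gave 0.83 on the log2 scale, with nearly all counts from the opposite row. Whether the opposite counts hold transcripts of HLA-B or of the row they are named for was not tested.

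The start of HLA-F had a similar neighbour. ENSG00000225864 (chromosome 6, 29690758 to 29691748, minus strand), also an unprocessed pseudogene of 991 bp, covers 701 bp of HLA-F exon. Its counts were 89, 46 and 69 with the SOX9 sgRNA, against 44, 39 and 33 in controls. Library 2, the highest for HLA-F itself, was the lowest SOX9 sgRNA library here at 59.8 CPM, against 58.7 CPM in the highest control. It did not pass the test at 0.58 on the log2 scale (95% interval 0.09 to 1.08, SE 0.25, edgeR adjusted p = 0.15). It was called when scaled by library totals, at 0.77 (edgeR adjusted p = 0.033, range 0.0334 to 0.687 over 12 alternatives). The share of this pair on the opposite row was 73.1 ± 18.4% with the SOX9 sgRNA and 86.3 ± 5.88% in controls (exact permutation p = 0.30, 0.40 adjusted).

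HLA-F-AS1 (ENSG00000214922, chromosome 6, 29694378 to 29716826, minus strand), which covers 878 bp of HLA-F exon further along the gene, had 11, 13 and 16 counts with the SOX9 sgRNA, against 4, 2 and 4 in controls. The groups did not overlap, at 15.2 ± 1.85 CPM with the SOX9 sgRNA and 4.54 ± 1.75 CPM in controls (SD, n = 3 each). HLA-F-AS1 differed by 1.73 on the log2 scale (95% interval 0.37 to 3.08, SE 0.68) and did not pass the test (edgeR adjusted p = 0.11, unadjusted 0.013). RPL23AP1, a ribosomal protein pseudogene that covers 257 bp of HLA-F exon, had 6, 8 and 7 counts with the SOX9 sgRNA, against 3, 0 and 4 in controls. It missed the filter on low counts. The sum of HLA-F and the 3 rows opposite it gave a log2 fold change of 0.92 with an edgeR adjusted p of 0.000664.

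PSMB8-AS1 (chromosome 6, 32811863 to 32814272, plus strand) is named for the immunoproteasome gene PSMB8 and also covers 456 bp of TAP1 exon. It had 141, 137 and 175 counts with the SOX9 sgRNA, against 95, 125 and 115 in controls, or 173 ± 4.61 CPM with the SOX9 sgRNA and 150 ± 20.6 CPM in controls (SD, n = 3 each). The groups were separated by a narrow gap only. PSMB8-AS1 did not pass the test, at 0.20 on the log2 scale (95% interval -0.11 to 0.51, SE 0.16, edgeR adjusted p = 0.51). Its share of the TAP1 pair was 76.1 ± 0.854% with the SOX9 sgRNA and 82.3 ± 4.97% in controls (exact permutation p = 0.20, 0.40 adjusted), in a test that could not pass at this size.

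**Figure D3:**
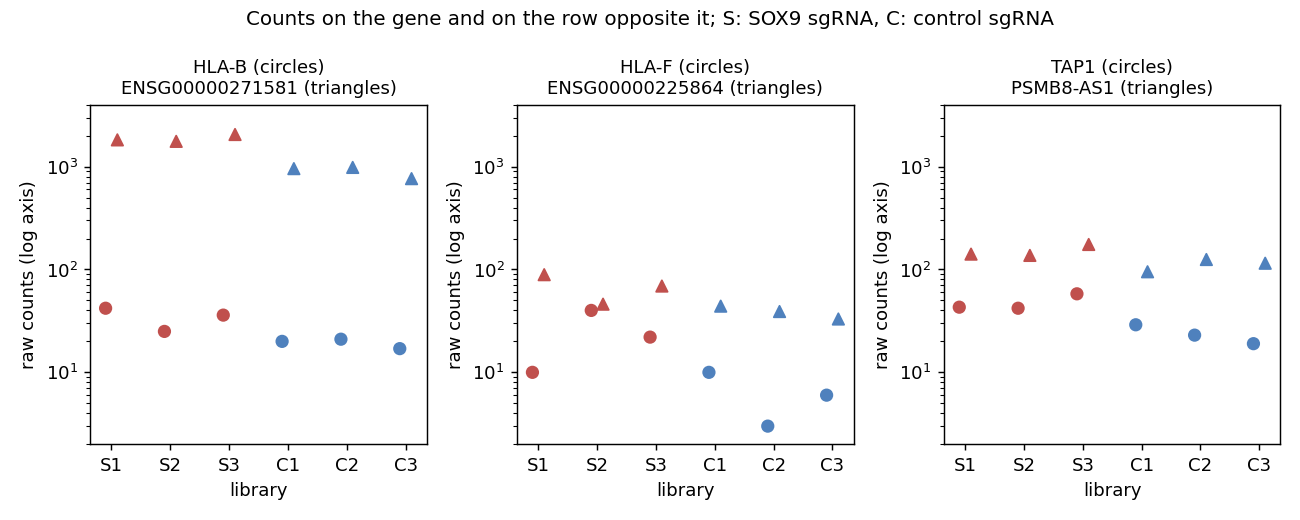
Raw counts (log axis) on HLA-B, HLA-F and TAP1 (circles) and on the row opposite each (triangles), in SOX9 sgRNA libraries S1 to S3 and control sgRNA libraries C1 to C3. ENSG00000271581 is 43.3 to 70.4 times HLA-B in a library, while in S2 the counts of HLA-F and ENSG00000225864 are close, at 40 and 46.

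Other genes of the pathway were read from 7 lists, most of whose genes missed the filter on low counts. The share called higher over all rows, 2.99%, is the background for each count. In the peptide loading and trimming list, 1 of 7 genes tested was higher and 0 lower, with a median log2 fold change of 0.14, against 0.01 over all rows. That gene was CALR, encoding calreticulin, a chaperone of the loading complex, at 383 ± 39.4 CPM with the SOX9 sgRNA and 274 ± 19.6 CPM in controls (a rise of 0.48 on the log2 scale, edgeR adjusted p = 0.0022, SE 0.12). The row opposite it, ENSG00000267458, rose as well, to 1272 ± 66.7 CPM with the SOX9 sgRNA against 996 ± 34.6 CPM in controls (0.35 on the log2 scale, edgeR adjusted p = 0.00063, SE 0.077), 1 of 5 opposite rows of the list. CANX, a chaperone that folds new heavy chains, gave 0.15, TAPBP, the bridge between TAP and heavy chain, gave 0.14, and TAP2, the other chain of the pump, gave -0.49. None of these 3 passed the test.

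In the list of immunoproteasome subunits and activator, PSME2 alone of 4 genes was tested and was not called. It had 14, 13 and 17 counts with the SOX9 sgRNA, against 7, 5 and 3 in controls (1.30 on the log2 scale, edgeR adjusted p = 0.18, SE 0.59), and PSMB8 and PSMB9 had 9 and 9 counts over the SOX9 sgRNA libraries, against 2 and 7 over the controls. The single opposite row tested, PSMB8-AS1, was not called. Of the constitutive proteasome core 7 of 13 matched genes were tested and 0 were called in either direction, with a median of 0.04, and its 1 opposite row was not called. Other class I and class I-like genes had 1 of 8 genes tested, with 0 called, and 1 opposite row tested, which was higher. Of 9 class II genes, 4 had no counts and 1, the class II activator gene CIITA, was tested and gave -0.30 without passing, with 0 of 2 opposite rows called.

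Regulators of class I transcription and of interferon receptor signalling gave 0 calls among 12 genes tested, with a median of -0.09. IFNGR1, the ligand-binding chain of the interferon-gamma receptor, had 20, 17 and 19 counts with the SOX9 sgRNA, against 9, 5 and 7 in controls, without passing the test (1.17 on the log2 scale, edgeR adjusted p = 0.14, SE 0.49). Of 7 opposite rows 1 was higher and 1 lower. TMEM50B, opposite IFNGR2, rose by 0.44 on the log2 scale (edgeR adjusted p = 0.00069, SE 0.096). Among 28 interferon-stimulated genes 2 were tested, PARP9 and DTX3L, which lie opposite each other, and 0 were called, with a median of 0.40. PARP9 had the smaller adjusted p, 0.061 by edgeR, at 0.49, and 0 of 3 opposite rows were called.

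**Figure D4:**
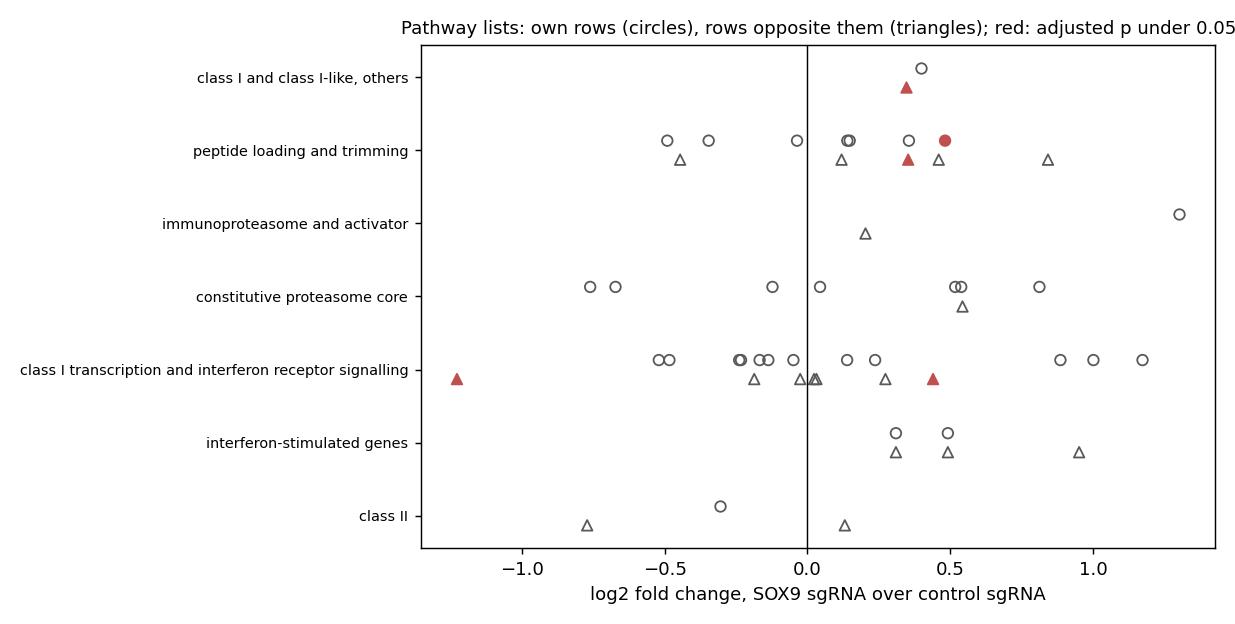
Log2 fold change, SOX9 sgRNA over control sgRNA, of tested genes in 7 pathway lists (circles) and of the rows opposite them (triangles), with calls in red. CALR at 0.48 is the 1 gene called, and 3 opposite rows were called higher and 1 lower.

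The called members differed in how far single libraries moved them. ENSG00000271581 moved between 0.77 and 0.89 and HLA-F between 0.96 and 2.16 as each library was left out. TAP1 stayed between 0.67 and 0.93, HLA-B between 0.38 and 0.70 and HLA-C between 0.39 and 0.67, all without a call. HLA-F-AS1 ran from 1.42 to 1.91, also without one. HLA-E was the member whose sign changed.

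**Figure D5:**
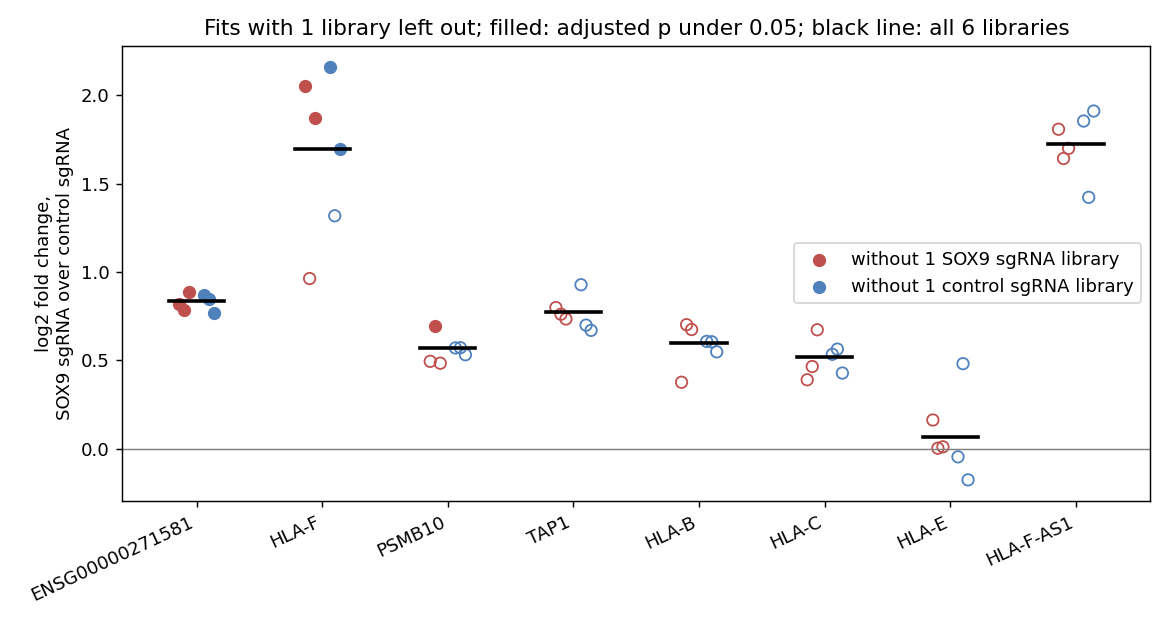
Log2 fold change, SOX9 sgRNA over control sgRNA, of each member in 6 fits with 1 library left out (points, filled where the adjusted p is under 0.05), beside the value from all 6 libraries (black lines). All 6 points are filled for ENSG00000271581, 4 for HLA-F and 1 for PSMB10.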

How the data were processed

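The authors deposited raw counts, whole numbers per gene with no normalization, in a table for each library. The submitters' processing notes name STAR 2.7.10a, Subread 1.6.2 and GRCh37 (hg19). In the command that the file headers hold, featureCounts 1.6.2 counted read pairs over exons of Ensembl release 75 with strand setting 1, and a fragment could count for every gene it overlaps. The annotation left out ribosomal RNA genes and the mitochondrial chromosome. The labels' protocols name a stranded Pico Input kit, so that strand decides which of 2 overlapping genes on opposite strands receives a fragment.

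Symbols were found for 51452 and GENCODE release 29 biotypes for 51789 of 57209 identifiers, and coordinates are those of the deposited tables. Exon overlaps were found with bedtools 2.31.1. In R 4.3.3, edgeR 4.0.16 filtered rows with filterByExpr at its defaults, scaled libraries by TMM and ran the robust quasi-likelihood test of SOX9 sgRNA over control sgRNA on all 6 libraries, with Benjamini-Hochberg adjustment over the 7959 rows tested and a threshold of 0.05. The SE is the log2 fold change over the square root of the test's F, and the 95% interval uses the fit's degrees of freedom. CPM is scaled by the TMM factors and relative to the total over rows tested. The limit for B2M is relative to all counts. Shares were compared by an exact permutation test over libraries, for pairs with at least 10 counts in every library.

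The members and lists were chosen with earlier results of these data known. The naming rule took all members and their opposite rows, SOX9, from each of 7 lists up to 4 called genes and up to 4 whose opposite row was called, and the 3 rows most like each called member of average log2 CPM at least 5. A few list genes are not reported here. List genes named without a call, and the marker genes, were picked for their role or direction after their values were seen. Alternatives were median-of-ratios size factors, library totals, the Wald test of DESeq2 1.42.0, no filter or at least 20 counts on average, a replicate block, leaving out each library, and the sum of own and opposite rows. Precision is limited by depth, and intervals cover the spread of these libraries only.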

Additional observations from a re-analysis of the deposited data

How the results depend on the processing

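Among all rows, 238 were higher and 479 lower. With library totals alone these were 625 and 249, and with no filter on low counts 151 were higher. Leaving out each library gave 161 to 207 higher and 364 to 430 lower. Of the members, 3 were higher, and 1, ENSG00000271581, with the replicate block and 1 with DESeq2, against 1 to 2 as each library was left out, with 1 only without control library 2. The cause was not tested. Under library totals the pathway lists had 4 own rows and 5 opposite rows higher in place of 1 and 3, and leaving out each library gave 1 to 2, with 2 only without control library 2, and 2 to 4. No alternative called a member lower. HLA-E ran from -0.18 to 0.48 as libraries were left out. The share differences kept their sign, from 0.117 to 0.544 percentage points for HLA-B, -21.7 to -3.46 for HLA-F and -9.05 to -4.44 for TAP1. Same-numbered libraries of the groups did not deviate together (correlations of deviations -0.0295 to 0.0172 over 4337 rows). Deviations were taken from the mean of each group of 3, at low depth, so this does not exclude a pairing. With the replicate block HLA-F was 1.57 and PSMB10 was 0.55, both no longer past the threshold, and ENSG00000271581 was 0.84. SOX9 ran from -0.34 to -0.14 as libraries were left out and was not called under any alternative. At least 20 counts on average left HLA-F and HLA-F-AS1 untested, and DESeq2 gave HLA-F-AS1 no adjusted p. Depth limits most member rows, of which HLA-B, HLA-C, HLA-E, HLA-F, HLA-F-AS1 and TAP1 had at most 59 counts in a library.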

Other observations

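Interferon-stimulated genes lay mostly below the filter on low counts. Of 12 such genes with at least 5 counts in all, 10 had a higher mean CPM with the SOX9 sgRNA, against 56.7% of all 12340 rows of this kind. The others, IFI35 and LGALS3BP, had 5 and 4 counts over the SOX9 sgRNA libraries, against 8 and 4 over the controls. OASL, with 7 counts against 0, and IFITM2, with 5 against 0, are in that number only through their SOX9 sgRNA libraries. These shares describe the genes and support nothing. GBP2, a guanylate-binding protein of the interferon-gamma response, had 10, 9 and 15 counts with the SOX9 sgRNA, against 3, 0 and 2 in controls. USP18, a brake on interferon receptor signalling, had 14 counts over the SOX9 sgRNA libraries, against 2 over the controls. In the list of class I transcription and interferon receptor signalling, 6 of 9 such genes (66.7%) had the higher mean with the SOX9 sgRNA. Among these, NLRC5, the transactivator of class I genes, had 2, 3 and 4 counts with the SOX9 sgRNA, against 0, 1 and 1 in controls, and IRF1, an interferon-response factor, had 17, 2 and 7 with the SOX9 sgRNA, against 4, 2 and 1 in controls. CREB1 had the lower mean with the SOX9 sgRNA, at 7.74 CPM against 9.02 CPM in controls. So did NFKB1, at 4.28 against 5.08 CPM, and IFNAR2, at 3.76 against 5.40 CPM. GBP2, USP18, NLRC5 and IRF1 were chosen after their values were seen, and no test was run on them. The SOX9 sgRNA libraries also detected more rows, from 20207 to 21082, against 18326 to 18818 in the control libraries, and the part of this in the counts above was not tested.

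Between HLA-F and TAP1 on chromosome 6, the tables hold 263 rows, of which 77 were tested. Of these 8 were higher and 7 lower, or 10.4% and 9.09%, against 2.99% and 6.02% of all rows tested, with a median log2 fold change of 0.07. HLA-F and ENSG00000271581 are 2 of the 8. This stretch was chosen after the members' values were seen.

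By row-centred log2 CPM over the 6 libraries, the rows nearest to ENSG00000271581 among the 4336 candidates, all averaging 5 or more in log2 CPM, were GPATCH4, PINK1-AS and PCNT, with root mean square differences of 0.0612, 0.1003 and 0.104. Nearest to PSMB10 were VIL1, at 0.0498, ENSG00000232811, at 0.0749, and PSMD2, which encodes a subunit of the proteasome's regulatory particle, at 0.0840.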
